A study of Mus musculus with 4 samples.

Results

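Transcripts of 8 genes of the Bcl2 family were followed through 5 populations of mouse bone marrow cells: the survival genes Bcl2, Bcl2l1 and Mcl1, the pore former Bax, and the death inducers Bcl2l11, Bbc3, Pmaip1 and Bmf. The members were taken by name and not by a cut on their values, but with earlier results of these data known. All 8 were among the 32285 genes counted. Each population was a gate, a minimum number of unique molecular identifiers (UMIs, 1 per captured transcript) of 1 gene in a cell: at least 1 of Hlf for stem and multipotent cells, at least 10 of Elane for granulocyte precursors, at least 10 of Car1 for erythroid precursors, at least 3 of Fcer1a for mast cell and basophil precursors, and at least 3 of Cd79a for B-lineage cells. A cell could enter more than 1 gate.

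Proteins of this family decide at the outer mitochondrial membrane whether a cell dies by apoptosis. The products of Bcl2, Bcl2l1 (Bcl-xL) and Mcl1 hold the pore-forming proteins Bax and Bak1 in check, and the small BH3-only proteins made from Bcl2l11 (Bim), Bbc3 (Puma), Pmaip1 (Noxa) and Bmf bind the guardians or the pore formers and promote death. Blood cells are known to lean on different guardians: stem cells on Mcl1, precursor B cells on Bcl2l1 and Mcl1, and Bim and Bmf are known for removing blood cells that lose cytokine signals. Bbc3, Pmaip1 and Bax are textbook targets of p53, the transcription factor encoded by Trp53.

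Cells carrying CD45.2, a surface antigen that marks donor cells in transplanted mice, were sorted from bone marrow 10 weeks after transplantation and profiled with a 10x Genomics 5′ kit. Of 4 libraries, 3 came from a Kit+ sort, labelled control, Mll3/4 deleted and Mll3/4SI, and the other was control marrow sorted as B220lo. Kmt2c and Kmt2d, the genes for MLL3 and MLL4, make enzymes that methylate histone H3 at enhancers; the labels name no Cre, promoter, sex or number of mice and do not expand SI. With 1 library per group there was no replicate, so no difference between groups was tested and every interval below covers counting error only.

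Promoter sequences are shown for members picked after their levels were seen, and these levels do not measure what a promoter does. Bbc3 and Bax stood together at their highest level in the B-lineage cells of the deleted library. Mcl1 stood lower there than in control B220lo cells, and Bcl2 differed most in the Fcer1a gate of the SI library. Each window ran from 250 bases before to 50 after an annotated start, from RefSeq on GRCm38.p6, and 7 of the 8 members had at least 1 window, 14 in all. Capitals mark motif matches on either strand: a p53 decamer (searched by its consensus), TGTTTAC (FoxO factors), TTCNNNGAA (STAT5) and CACGTG (the E-box bound by MYC). CACGTG reads the same on both strands, and a p53 decamer is only part of a full p53 site. The windows lie at chr7:16310011-16310310 on the plus strand for Bbc3 (the middle of its 3 starts), chr7:45466849-45467148 on the minus strand for Bax, chr3:95658471-95658770 on the plus strand for Mcl1 and chr1:106714241-106714540 on the minus strand for Bcl2.
Bbc3: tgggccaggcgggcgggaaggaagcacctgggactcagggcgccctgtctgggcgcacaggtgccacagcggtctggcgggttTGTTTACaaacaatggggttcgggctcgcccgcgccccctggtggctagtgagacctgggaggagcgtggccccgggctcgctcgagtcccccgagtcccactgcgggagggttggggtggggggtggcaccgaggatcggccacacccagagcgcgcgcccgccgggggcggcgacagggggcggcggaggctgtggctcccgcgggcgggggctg
Bax: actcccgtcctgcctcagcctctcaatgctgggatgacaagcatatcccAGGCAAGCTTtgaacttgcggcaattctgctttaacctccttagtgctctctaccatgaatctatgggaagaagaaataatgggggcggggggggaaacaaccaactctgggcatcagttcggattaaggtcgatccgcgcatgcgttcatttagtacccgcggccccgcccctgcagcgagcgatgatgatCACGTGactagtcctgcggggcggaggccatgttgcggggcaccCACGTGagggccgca
Mcl1: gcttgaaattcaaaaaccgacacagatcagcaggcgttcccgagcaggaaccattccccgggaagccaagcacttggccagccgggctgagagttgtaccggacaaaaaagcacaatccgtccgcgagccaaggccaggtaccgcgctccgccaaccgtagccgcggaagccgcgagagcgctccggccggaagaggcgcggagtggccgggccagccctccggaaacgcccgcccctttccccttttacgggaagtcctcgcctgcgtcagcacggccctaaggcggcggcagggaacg
Bcl2: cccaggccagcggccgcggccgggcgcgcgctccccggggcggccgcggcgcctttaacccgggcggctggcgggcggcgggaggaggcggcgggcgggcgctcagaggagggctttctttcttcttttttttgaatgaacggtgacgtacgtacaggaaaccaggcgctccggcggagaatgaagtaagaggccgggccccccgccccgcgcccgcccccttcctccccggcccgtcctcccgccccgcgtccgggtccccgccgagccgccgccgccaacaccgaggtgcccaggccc

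The Bbc3 window shown held 1 FoxO match whose first base lay at -167 from the start; of its other windows 1 held no match and 1 held CACGTG at -64, and none of the 3 held a p53 decamer. The Bax window held 1 p53 decamer at -201 and CACGTG at -9 and at 35. Of windows not shown, 1 of Bcl2l11 held a FoxO match at -227 and 1 of Bmf a p53 decamer at -213. Bases after the start were found in a GENCODE M21 transcript of the gene for the Bax window, but not for those of Bbc3, Mcl1 or Bcl2. No motif of the 4 was found in the windows of Bcl2, Mcl1 or Bcl2l1. Of the 32851 windows of all genes, 8.36% held a p53 decamer, 3.65% the FoxO motif, 8.30% the STAT5 motif and 7.15% CACGTG, so matches of this kind are common and describe letters, not binding. The windows of Bcl2 (76% G and C, 44 CpG pairs), Bbc3 (74.7%, 30 pairs) and Mcl1 (65.7%, 33 pairs) were richer in CpG than the median window, which had 52.7% G and C and 7 pairs.

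The genes lie on GRCm38 at chr1:106538178-106714274 (Bcl2, minus strand), chr2:152780668-152831728 (Bcl2l1, minus), chr3:95658788-95663176 (Mcl1, plus), chr7:45461697-45466898 (Bax, minus), chr2:128126038-128162547 (Bcl2l11, plus), chr7:16308393-16318205 (Bbc3, plus), chr18:66458533-66465565 (Pmaip1, plus) and chr2:118528757-118549687 (Bmf, minus), in GENCODE M21. D630008O14Rik, which is also counted, runs antisense within Bcl2, and whether the counting used strand is not given in the sources used here.

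The deposited barcodes held 85445426 to 166327773 UMIs per library, and 11051 to 15380 cells per library were kept. Median depth of kept cells was 11594 UMIs for control Kit+, 6507 for deleted, 11969 for SI and 3246 for control B220lo cells. Between 178 and 292 kept barcodes were shared by any pair of libraries. Transcripts of Y-linked genes stood at 154 CPM (a gene's UMIs scaled to the same total of UMIs in every population) in the deleted library and between 0.507 and 1.08 CPM in the others, so sex-linked transcripts differed together with genotype. Kmt2c stood at 51.8 CPM in deleted against 58.1 CPM in control Kit+ cells and Kmt2d at 20.1 against 24.0 CPM; with a 5′ tag these counts do not check a deletion elsewhere in the gene. Lineage marker lists were summed in each gate; each list holds its own gating gene, so these sums are set in part by the gate. The summed level of 10 granulocyte markers was 43855 to 49644 CPM in the 4 Elane gates, that of 10 erythroid markers 7136 to 7502 CPM in the Car1 gates of the Kit+ libraries, and that of 10 mast cell or basophil markers 3387 and 3552 CPM in the Fcer1a gates of the control Kit+ and SI libraries. Granulocyte markers also summed to 13235 to 23277 CPM in the Hlf gates and to 9226 and 6283 CPM in those Fcer1a gates, above the mast cell or basophil sum there. The control Kit+ library gave 2493 Hlf, 4223 Elane, 2288 Car1, 127 Fcer1a and 47 Cd79a cells, the deleted library 186, 554, 62, 4 and 12591, the SI library 3238, 3345, 869, 2341 and 28, and the control B220lo library 58, 102, 17, 26 and 10839. Gates under 50 cells were described but not compared.

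**Figure D1:**
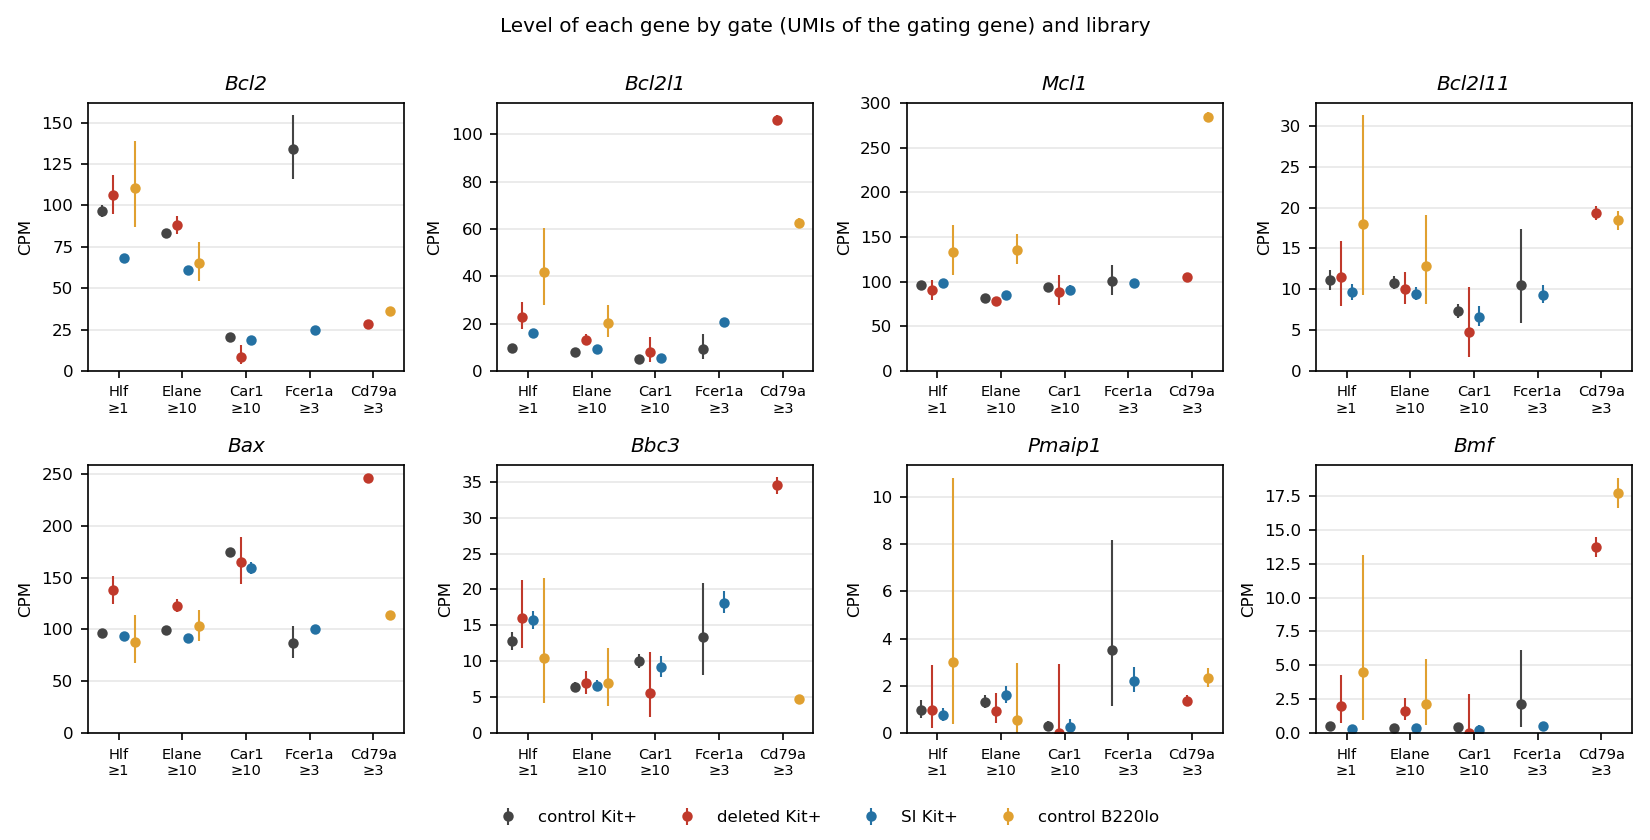
CPM of each of the 8 genes (1 panel per gene, y axis from 0) in cells of each gate (x axis, gating gene and minimum UMIs), with 1 colour per library and bars for exact Poisson 95% intervals. Bbc3 stands at 34.5 CPM in the Cd79a cells of the deleted library and at or under 18.2 CPM in every other gate of at least 50 cells, and Bcl2 is at 134 CPM in the Fcer1a cells of the control Kit+ library against 24.7 CPM in those of the SI library.

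Across the gates of the control Kit+ library, Bcl2 varied most by lineage among the guardians and Mcl1 least. Bcl2 stood at 96.6 CPM in Hlf cells (95% interval 93.0 to 100.2), 83.5 CPM in Elane cells (81.3 to 85.8), 134 CPM in Fcer1a cells (116 to 155) and 20.5 CPM in Car1 cells (19.2 to 21.9). Bcl2 was thus lowest in the erythroid gate, beyond counting error, and highest in the Fcer1a gate. Bcl2l1, the guardian that erythropoietin is known to induce late in red cell formation, stood at 9.86 CPM in Hlf, 7.98 in Elane, 9.13 in Fcer1a and 4.84 CPM in Car1 cells, and its intervals in the Hlf and Fcer1a gates overlapped. Mcl1 kept within 81.3 to 100.4 CPM over these 4 gates.

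Of the death side, Bax was highest in the erythroid gate of the control Kit+ library, at 175 CPM (171 to 179) against 96.2 CPM in Hlf, 99.2 in Elane and 87.1 CPM in Fcer1a cells. Bcl2l11 stood at 11.1 CPM in Hlf, 10.8 in Elane, 10.5 in Fcer1a and 7.30 CPM in Car1 cells. Bbc3 was at 12.8 CPM in Hlf, 6.40 in Elane, 13.3 in Fcer1a and 10.0 CPM in Car1 cells, lowest in the granulocyte gate. Pmaip1, at 0.289 to 3.51 CPM, and Bmf, at 0.336 to 2.11 CPM, were near the limit of counting in all 4 gates, with 3 to 82 UMIs each.

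In cells passing the Fcer1a gate, where mast cell and basophil precursors gather, Bcl2 stood at 134 CPM in the control Kit+ library (191 UMIs, 127 cells) and 24.7 CPM in the SI library (760 UMIs, 2341 cells). The SI level was 0.184 of the control level (95% interval 0.157 to 0.217), and 0.22% of the genes tested had a lower ratio. A gene was tested where the library with the higher CPM had at least 100 UMIs, and a gene past 1.5-fold was counted as higher or lower. Of 5 members tested, Bcl2 was lower and Bcl2l1 was higher past 1.5-fold, beside 20.3% of all genes past it either way, 2.65% lower and 17.7% higher. A gene lower in the SI cells needed its 100 UMIs in only 127 control cells, so fewer genes could be counted as lower than as higher. The median log2 ratio of the 5 members was 0.21 and that of all genes tested 0.20.

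Bcl2l1 rested on 13 UMIs in the control Fcer1a cells, at 9.13 CPM, against 640 UMIs and 20.8 CPM in the SI cells, a ratio of 2.28 (1.32 to 4.30). Bcl2 and Bcl2l1, guardians with overlapping partners, thus lay on opposite sides of the control level. Mcl1 stood at 98.8 CPM in the SI and 100.4 CPM in the control cells, a ratio of 0.984 (0.832 to 1.17). Bax was at 101 and 87.1 CPM (ratio 1.16, 0.968 to 1.40) and Bbc3 at 18.2 and 13.3 CPM (1.36, 0.864 to 2.28), neither past 1.5-fold. Bcl2l11, Pmaip1 and Bmf had too few UMIs to be tested.

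The lower Bcl2 of the SI Fcer1a cells was as large without the cells that also passed another gate, 799 in the SI and 33 in the control library: among the rest Bcl2 stood at 22.3 CPM in 1542 SI cells and 126 CPM in 94 control cells. Mcpt8 and Prss34 encode basophil proteases. In cells with neither transcript Bcl2 was at 22.6 CPM (2217 cells) against 127 CPM (86 cells), and in cells with at least 1 it was at 50.3 CPM (124 cells) against 146 CPM (41 cells, not compared). With each cell thinned at random to 2000 UMIs, 98 of 2338 SI cells (4.19%, exact binomial 95% interval 3.42 to 5.08) and 30 of 127 control cells (23.6%, 16.5 to 32.0) had a Bcl2 UMI; without thinning the shares were 21.6% and 59.1%. The control Kit+ Car1 cells, the gate where Bcl2 was lowest, had a thinned share of 4.43%. The 26 Fcer1a cells of the control B220lo library, too few to compare, stood at 37.4 CPM (20.5 to 62.8), nearer to the SI than to the control Kit+ cells. Of these 26 cells 7 also passed the Cd79a gate. The B-lineage marker sum of the 26 was 1196 CPM, against 41.4 CPM in the control Kit+ and 40.8 CPM in the SI Fcer1a cells. Median depth was 10348 UMIs in the control and 11699 in the SI cells, the granulocyte marker sum was 9226 and 6283 CPM and the cell cycle sum 2024 and 1673 CPM in the same order. T or NK cell markers summed to 527 CPM in the control cells, with Cd3e, Cd3d and Gzma at 0, and to 41.6 CPM in the SI cells, with Cd3e and Gzma at 0. The part of depth and of these lists in the Bcl2 difference was not tested.

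Other genes of the death machinery in the Fcer1a gate came from lists of names, also chosen with earlier results of these data known. Of 15 genes of the apoptosome and caspases, 10 were tested, with 1 higher and 1 lower past 1.5-fold, beside 17.7% and 2.65% of all genes. The higher one, Endog, a mitochondrial nuclease, stood at 18.2 CPM in the SI against 9.13 CPM in the control cells. Of 16 genes of p53 and its targets 5 were tested, and 3 were higher: Trp53inp1 at 8.51 against 2.81 CPM, Cdkn1a, a cell cycle inhibitor, at 28.4 against 14.7 CPM, and Fas, a death receptor, at 3.67 against 2.11 CPM. The control side of Trp53inp1 and Fas was 4 and 3 UMIs. Of 18 cytokine and FoxO genes 12 were tested and none passed 1.5-fold either way. Of 15 other Bcl2 family genes 4 were tested and Bcl2l14 was higher, from 2 control UMIs. In cells of 1 gate only, higher genes were 2 of 5 (p53), 1 of 9 (cytokine and FoxO) and none of 4 (other Bcl2 family), beside 21.6% of all genes. In cells without Mcpt8 and Prss34 they were 3 of 6, 1 of 8 and 3 of 5 in the same order, beside 22.4%.

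In Hlf and Elane cells of the SI library Bcl2 also stood below and Bcl2l1 above the control, beyond counting error. In Hlf cells Bcl2 stood at 68.3 CPM against 96.6 CPM in the control (ratio 0.708, 0.672 to 0.746), which was not past 1.5-fold, and 4.99% of genes tested had a lower ratio. Bcl2l1 stood at 15.9 against 9.86 CPM (1.62, 1.41 to 1.86), the only 1 of 6 members tested past 1.5-fold, beside 8.13% of all genes either way and 4.35% higher. The Bcl2l1 call did not hold in cells of 1 gate only, where it stood at 17.4 CPM in 1955 SI and 13.1 CPM in 1638 control cells (1.33, 1.12 to 1.60), beside 5.67% of all genes past 1.5-fold. Of the SI Hlf cells 700 also passed the Fcer1a gate, against 17 of the control Hlf cells, and the mast cell or basophil marker sum was 1144 against 360 CPM. Bcl2 in cells of 1 gate only stood at 83.5 against 109.6 CPM (0.762, 0.711 to 0.815).

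In Elane cells Bcl2 stood at 60.8 CPM in the SI and 83.5 CPM in the control library (0.728, 0.697 to 0.760), and 4.58% of genes tested had a lower ratio. Bcl2l1 was at 9.21 against 7.98 CPM (1.15, 1.02 to 1.31). The 102 Elane cells of the control B220lo library lay on the same sides of the control Kit+ level. Their Bcl2 was at 65.3 CPM (54.3 to 78.0) and their Bcl2l1 at 20.4 CPM (14.4 to 27.9), so these directions were not particular to the SI library. None of 6 members tested passed 1.5-fold in this gate, beside 7.81% of all genes. In Car1 cells none of 5 did, beside 4.29% of all genes: Bcl2 was at 18.4 against 20.5 CPM (0.898, 0.786 to 1.02), Bcl2l1, with 92 UMIs in the SI cells and so not tested, at 5.49 against 4.84 CPM (1.13, 0.876 to 1.46), and Bax at 159 against 175 CPM (0.913, 0.873 to 0.955). Mcl1 stood close to the control in all 4 SI gates, with ratios of 1.02 in Hlf, 1.05 in Elane, 0.974 in Car1 and 0.984 in Fcer1a cells. The 4 ratios of each gene share the control library, so they are not independent, and whether the Bcl2 ratio differed between gates was not tested; the interval in Fcer1a cells (0.157 to 0.217) lay below those in the other gates.

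**Figure D2:**
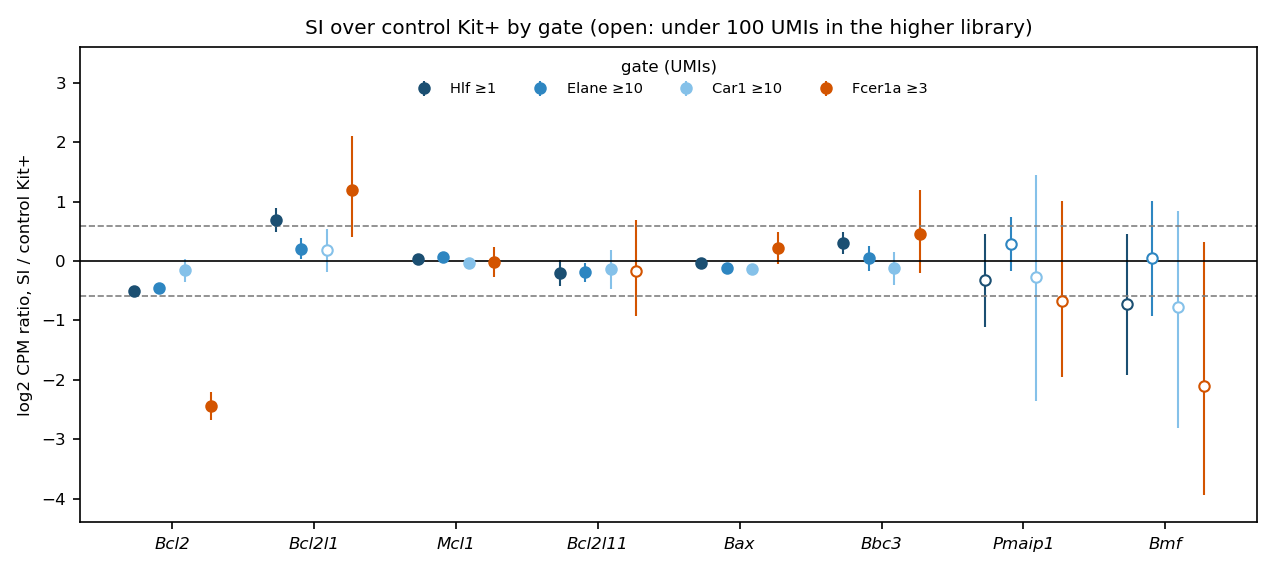
Log2 ratio of CPM, SI over control Kit+ (y axis), for each of the 8 genes (x axis) in 4 gates (colours), with exact conditional 95% intervals; open points had under 100 UMIs in the library with the higher CPM. Bcl2 lies below 0 in all 4 gates and at -2.44 in Fcer1a cells, while Mcl1 lies close to 0 throughout.

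Of the pathway lists in these 3 gates, Sesn2, a stress-induced p53 target, was lower past 1.5-fold in each: 4.28 against 7.51 CPM in Hlf, 3.24 against 5.14 CPM in Elane and 4.18 against 6.48 CPM in Car1 cells of the SI and control libraries. Sesn2 was the only gene of the p53 list that was lower, 1 of 13 tested in Hlf and 1 of 9 in Car1 cells, beside 3.78% and 2.48% of all genes. Fas, at 3.88 against 2.03 CPM, and Cdkn1a, at 21.6 against 12.2 CPM, were higher in SI Elane cells. In that gate 12 of the list were tested, with 2 higher and 1 lower, beside 4.45% and 3.36% of all genes. Phlda3, which restrains Akt, was higher in Hlf cells, at 3.31 against 2.01 CPM. It was 1 of 13 tested in Hlf cells, beside 4.35% of all genes higher. In cells of 1 gate only none of 9 tested was higher, beside 2.69% of all genes. Of the cytokine and FoxO survival genes 2 of 16 tested were lower past 1.5-fold in Hlf cells, beside 3.78% of all genes, and 2 of 15 in Elane cells, beside 3.36%, among them Flt3 in Elane cells at 15.7 against 24.1 CPM, and none of 13 passed it in Car1 cells. None of the 15 genes of the apoptosome and caspases, all tested, passed 1.5-fold in any of these 3 gates, and none of the tested other Bcl2 family genes did.

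In the few Hlf and Elane cells of the deleted library the guardians Bcl2 and Mcl1 stood near the control over all cells of each gate. In Hlf cells of 1 gate only Bcl2 stood higher, beyond counting error. In Hlf cells (186 against 2493) Bcl2 was at 106 CPM in deleted against 96.6 CPM in control cells (1.10, 0.979 to 1.24), Mcl1 at 90.2 and 96.4 CPM (0.936, 0.824 to 1.06) and Bax at 138 and 96.2 CPM (1.43, 1.29 to 1.59). These were the only 3 members with enough UMIs, and none passed 1.5-fold, beside 12.1% of all genes. The Bax ratio was above that of 98.2% of the genes tested. In the 102 deleted cells of 1 gate only Bax stood at 150.2 CPM against 85.1 CPM, past 1.5-fold (1.77, 1.52 to 2.05) beside 18% of all genes either way and 0.933% higher, and Bcl2 at 148 against 109.6 CPM (1.35, 1.16 to 1.56).

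In Elane cells (554 against 4223) 1 of 5 members tested passed 1.5-fold, beside 10.3% of all genes either way and 2.5% higher: Bcl2l1 stood at 13.1 CPM in deleted against 7.98 CPM in control cells (1.64, 1.36 to 1.98). Bax was at 123 and 99.2 CPM (1.24, 1.17 to 1.31), Bcl2 at 88.1 and 83.5 CPM (1.06, 0.984 to 1.13) and Mcl1 at 77.9 and 81.3 CPM (0.959, 0.891 to 1.03). The Bcl2l1 difference did not remain in cells of 1 gate only, at 7.37 CPM in 402 deleted and 8.17 CPM in 3457 control cells (0.902, 0.666 to 1.20), beside 9.03% of all genes past 1.5-fold. Over all cells of the gate the sum of 10 B-lineage markers was 980 CPM in the deleted library, where 92 of 554 cells also passed the Cd79a gate. It was 57.1 CPM in the control Elane cells, with all 10 markers detected in both. Bcl2l1 was at 106 CPM in the Cd79a cells of the deleted library. The part of such cells in the Bcl2l1 difference was not tested. In deleted Hlf cells, where the marker sum was 1061 against 63.0 CPM, Bcl2l1 was at 23.0 against 9.86 CPM, from 70 UMIs. With each cell thinned to 2000 UMIs, which gives every cell the same weight, a Bcl2l1 UMI was found in 1.62% of deleted and 1.57% of control Elane cells (18.6% and 10.96% without thinning), with 95% intervals of 0.745 to 3.06 and 1.22 to 1.995.

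Of the cytokine and FoxO survival genes, 2 of 17 tested were higher and 3 lower in deleted Hlf cells, beside 1.38% and 10.7% of all genes, and 2 of 16 higher and 2 lower in Elane cells, beside 2.5% and 7.84%. In Hlf cells of 1 gate only, none of 13 was higher and 4 were lower, beside 0.933% and 17.1% of all genes. In Elane cells of 1 gate only, 1 of 14, Foxo1, was higher, at 13.8 against 3.58 CPM, and 1 was lower, beside 1.02% and 8.01%. Over all cells of each gate in the deleted library Il7r, the interleukin 7 receptor of early B-lineage cells, stood at 35.8 CPM in Hlf and 26.1 CPM in Elane cells against 0.102 and 0.016 CPM in the control, and Foxo1, a FoxO transcription factor of B-lineage cells, at 83.4 and 72.4 CPM against 8.09 and 4.10 CPM. Flt3, a cytokine receptor of multipotent cells, was lower in both, at 29.2 and 6.83 CPM against 63.1 and 24.1 CPM. Of the 15 apoptosome and caspase genes, 1 of 13 tested was lower past 1.5-fold in Hlf cells, a share near the 10.7% of all genes, and none of 15 passed it in Elane cells. Perp, a p53 target, was lower in both gates, at 0.984 against 3.52 CPM and 0.456 against 3.01 CPM. The deleted Hlf level equals the floor of 3 counts. Of the p53 list 1 of 7 tested was lower in Hlf and 2 of 9 in Elane cells, none higher, beside 10.7% and 7.84% of all genes lower. In Hlf cells of 1 gate only none of 6 was lower, beside 17.1% of all genes.

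In Car1 cells of the deleted library, only 62, Bcl2 stood at 8.66 CPM from 11 UMIs against 20.5 CPM in 2288 control cells (0.422, 0.210 to 0.758), Bbc3 at 5.51 against 10.0 CPM (0.551, 0.220 to 1.15) and Bcl2l11 at 4.72 against 7.30 CPM (0.647, 0.236 to 1.42). These 3 of 5 members tested were lower past 1.5-fold, beside 16.3% of all genes either way and 16% lower. A gene higher in so small a library needed 100 UMIs there, so the count could hardly run the other way, and the intervals of Bbc3 and Bcl2l11 included no difference. Bcl2l11 changed side, to a log2 ratio of 0.25, with likely doublets kept and, to 0.28, with each cell given the same weight. Mcl1 was at 88.9 and 93.7 CPM and Bax at 165 and 175 CPM, both within their counting intervals of the control. Pmaip1 and Bmf had no UMI in these 62 cells, which by a floor of 3 counts allows up to 2.36 CPM each.

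The control libraries, which share a genotype but not a sort, were also set against each other. In Elane cells Mcl1 stood at 136 CPM in the control B220lo and 81.3 CPM in the control Kit+ library (1.67, 1.46 to 1.89), 1 of 3 members tested past 1.5-fold, beside 23.2% of all genes either way and 4.69% higher. Bcl2 stood lower in the control B220lo Elane cells, at 65.3 CPM (54.3 to 78.0) against 83.5 CPM (81.3 to 85.8), not past 1.5-fold. Bcl2l1, from 38 UMIs and so not tested, was at 20.4 against 7.98 CPM. In Hlf cells (58 in the control B220lo library) neither Bax nor Bbc3, the members tested, passed 1.5-fold, beside 32.6% of all genes. Gene levels within a gate thus differed between libraries that carry the same labelled genotype. B-lineage markers summed to 880 CPM in these B220lo Elane cells and to 57.1 CPM in the control Kit+ cells, and in cells of 1 gate only Mcl1 stood at 114 against 81.1 CPM (1.40, 1.18 to 1.66), which was not past 1.5-fold, beside 23.9% of all genes that were.

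B-lineage cells filled the deleted Kit+ library and the control B220lo library, and here the death genes Bbc3 and Bax stood higher in the deleted library. The guardian Mcl1 stood lower over all such cells, but not past 1.5-fold among cells with transcripts of an early stage (0.810, 0.770 to 0.852). Bbc3 stood at 34.5 CPM in 12591 deleted cells (33.3 to 35.7) and 4.68 CPM in 10839 control B220lo cells (4.12 to 5.29), a ratio of 7.38 (6.49 to 8.42). Bax stood at 247 and 114 CPM (2.16, 2.10 to 2.23). Mcl1 stood at 105 and 285 CPM (0.369, 0.360 to 0.379). Bcl2l1 stood at 106 and 62.7 CPM (1.69, 1.63 to 1.76). Genotype, sort (Kit+ against B220lo), stage, sex-linked transcripts and depth all differ between these libraries and cannot be told apart.

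Of the 8 members, all tested in this gate, 3 were higher and 2 lower past 1.5-fold, beside 45.1% of all genes either way, 24.6% higher and 20.5% lower. The share of members past 1.5-fold was thus near the background, and that count is no result about the members. The fifth member past it was Pmaip1, lower at 1.35 against 2.32 CPM (0.581, 0.452 to 0.748). Bcl2 stood at 28.1 and 36.4 CPM (0.771, 0.727 to 0.818), Bcl2l11 at 19.3 and 18.4 CPM (1.05, 0.970 to 1.13) and Bmf at 13.7 and 17.7 CPM (0.777, 0.715 to 0.845). The median log2 ratio was -0.15 over the members and 0.03 over all genes tested. Among all genes tested the Bbc3 ratio was above 93.9% of them and the Mcl1 ratio above 10.7%.

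Assembled immunoglobulin contigs order B-lineage cells by rearrangement: none, a heavy chain only, and heavy with light chain, the last from the stage at which light chains are joined. Of the deleted Cd79a cells 9649 had no contig, 2910 a heavy chain only, 13 a light chain only and 19 both, and of the control B220lo cells 2725, 1539, 528 and 6047. A cell without a contig may have none or may have had none recovered.

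Among cells without a contig, Bbc3 stood at 33.6 CPM in deleted against 3.87 CPM in control B220lo cells (8.69, 6.62 to 11.6). Bax was at 242 and 112 CPM (2.16, 2.05 to 2.28) and Mcl1 at 105 and 221 CPM (0.476, 0.457 to 0.497). These were the 3 of 7 members tested past 1.5-fold, 2 higher and 1 lower, beside 40.8% of all genes either way, 22.4% higher and 18.4% lower. Bcl2l1 was at 105 and 70.6 CPM (1.49, 1.40 to 1.60), Bcl2 at 27.9 and 36.8 CPM, Bcl2l11 at 19.2 and 21.0 CPM and Bmf at 14.6 and 16.9 CPM.

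Among cells with a heavy chain only, Bbc3 stood at 37.5 and 3.26 CPM (11.5, 8.05 to 17.0), Bax at 260.0 and 115 CPM (2.26, 2.12 to 2.41), Bcl2l1 at 109 and 63.6 CPM (1.71, 1.57 to 1.87) and Bcl2 at 28.5 and 17.8 CPM (1.60, 1.35 to 1.91). Mcl1 was at 105 and 158 CPM (0.662, 0.620 to 0.706). Here 5 of 7 members tested passed 1.5-fold, 4 higher and 1 lower, beside 40.5% of all genes either way, 24.4% higher and 16.1% lower. Bcl2 thus lay below the control B220lo level in cells without a contig and above it in cells with a heavy chain only, with a control level that differed between the states and a deleted level whose intervals overlapped. Without a contig this direction turned in the Vpreb1 subset described below, where Bcl2 stood at 26.7 and 21.5 CPM (1.24, 1.03 to 1.502). With a heavy chain only the Bcl2 and Mcl1 calls ended in that subset (1.26 and 0.977).

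**Figure D3:**
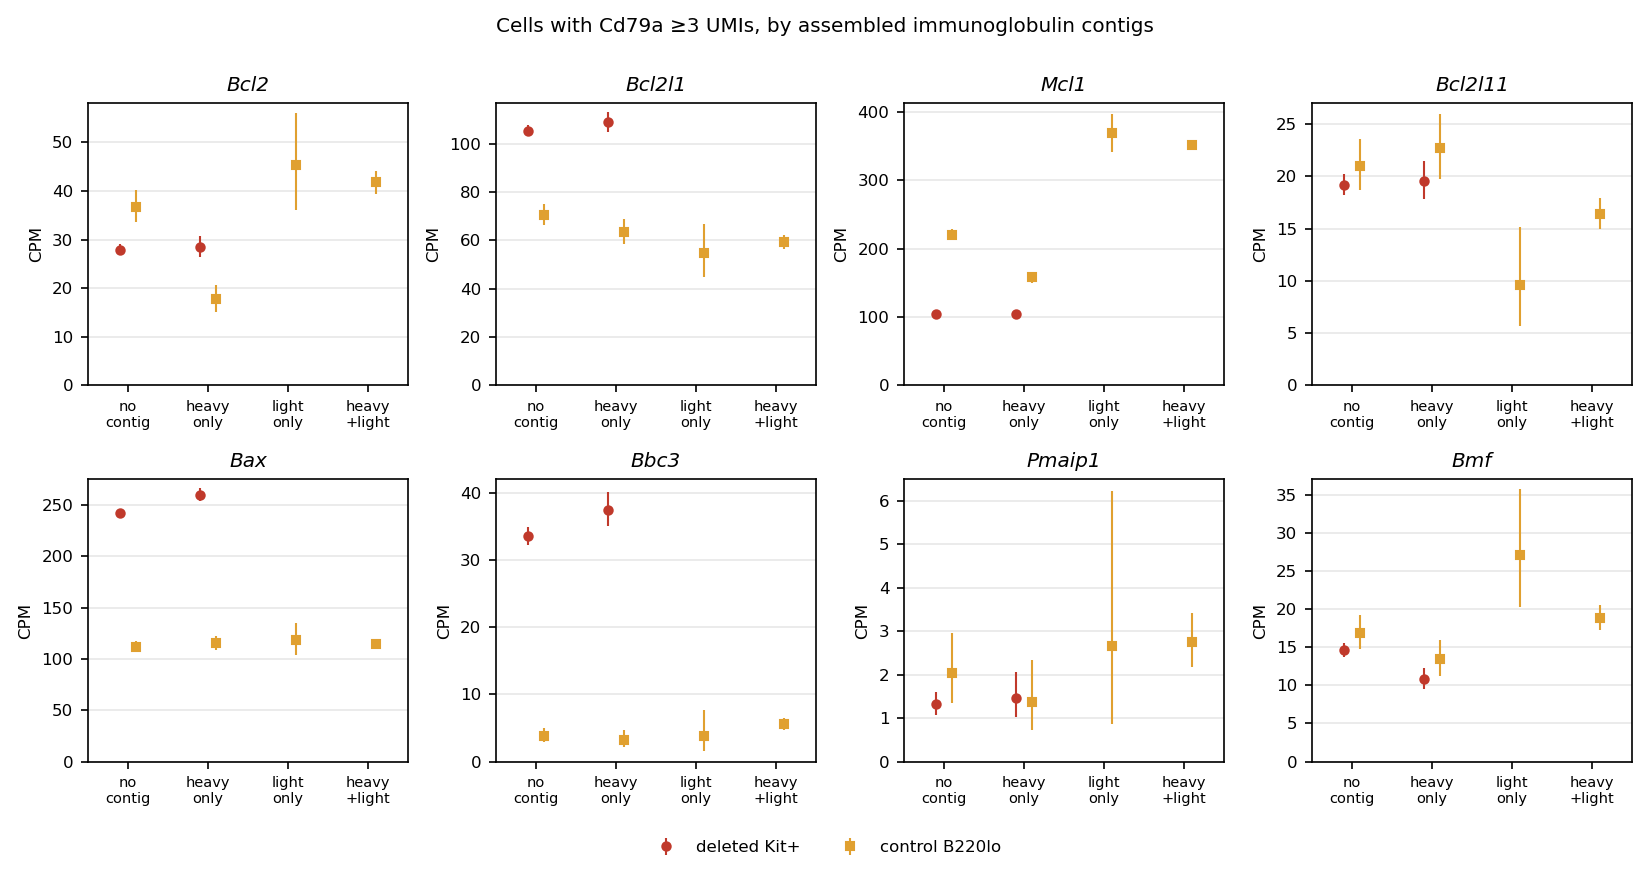
CPM of each of the 8 genes (1 panel per gene, y axis from 0) in Cd79a cells by contig state (x axis) in the deleted Kit+ and control B220lo libraries, with exact Poisson 95% intervals. In the deleted library Mcl1 is at 105 CPM both without a contig and with a heavy chain only and Bmf at 14.6 and 10.8 CPM, while in the control B220lo library Mcl1 runs from 158 CPM with a heavy chain only to 369 CPM with a light chain only.

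Within the deleted library the members were also set side by side in the 2 larger contig states. Bcl2 stood at 27.9 CPM without a contig and 28.5 CPM with a heavy chain only, Bcl2l1 at 105 and 109 CPM, Mcl1 at 105 and 105 CPM, Bcl2l11 at 19.2 and 19.6 CPM and Pmaip1 at 1.31 and 1.47 CPM. Bax stood at 242 (239 to 246) and 260.0 CPM (254 to 267), Bbc3 at 33.6 (32.3 to 34.9) and 37.5 CPM (35.0 to 40.1). Bmf stood at 14.6 (13.8 to 15.5) and 10.8 CPM (9.52 to 12.3). The intervals of Bax, Bbc3 and Bmf did not overlap. The share of all genes with intervals apart between these states was not counted, so this is no result about the members. The 19 deleted cells with both chains, too few to compare, gave 4 UMIs of Bbc3 and 25 each of Mcl1 and Bax.

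Within the control B220lo library the guardians differed between states. Mcl1 stood at 158 CPM with a heavy chain only (150.2 to 166), 221 CPM without a contig (213 to 229), 352 CPM with both chains (345 to 359) and 369 CPM with a light chain only (342 to 398), the last pair overlapping. Bcl2 was lowest with a heavy chain only, at 17.8 CPM (15.2 to 20.7), and stood at 36.8 CPM without a contig (33.6 to 40.1), 41.8 CPM with both (39.4 to 44.2) and 45.3 CPM with a light chain only (36.2 to 56.0). Bcl2l1 took another order: 70.6 CPM without a contig, 63.6 with a heavy chain only, 59.2 with both and 54.9 CPM with a light chain only, and its neighbouring intervals overlapped. The cell cycle marker sum, 3727 CPM with a heavy chain only against 1821 CPM with both chains, ran opposite to Mcl1 and Bcl2 over these states.

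Among the death genes of the control B220lo cells, Bax was flat over the 4 states, at 112 to 119 CPM. Bcl2l11 stood at 21.0 CPM without a contig, 22.7 with a heavy chain only, 16.4 with both and 9.59 CPM with a light chain only. Bmf took the opposite course, at 16.9, 13.5, 18.9 and 27.2 CPM. Bbc3 was low in every state, at 3.26 to 5.59 CPM, and Pmaip1 at 1.37 to 2.74 CPM.

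The stage of the cells differed greatly between the libraries. Vpreb1 encodes part of the surrogate light chain of early B-lineage cells and Ms4a1 the CD20 antigen of later ones: 96.6% of the deleted Cd79a cells and 11.04% of the control B220lo cells had at least 3 Vpreb1 and no Ms4a1 UMIs. The shares are not thinned, at median depths of 6458 and 3077 UMIs. In this subset (12164 against 1197 cells) the sides still differed: median depth was 6565 against 9291 UMIs, the B-lineage marker sum 15770 against 10016 CPM and the cell cycle sum 2827 against 3715 CPM, and their part in the ratios was not tested. Bbc3 stood at 34.6 and 2.66 CPM (12.98, 9.39 to 18.5), Bax at 249 and 125 CPM (1.99, 1.90 to 2.09) and Bcl2l1 at 105 and 29.5 CPM (3.57, 3.23 to 3.95). The Bbc3 and Bcl2l1 ratios lay above those over all Cd79a cells, with intervals that did not overlap. Mcl1, in contrast, stood at 105 and 129 CPM (0.810, 0.770 to 0.852) and was no longer past 1.5-fold, and Bmf, at 13.5 and 4.47 CPM (3.02, 2.34 to 3.96), was higher, beside 38.4% of all genes past 1.5-fold. Pmaip1 stood at 1.34 and 1.30 CPM (1.04, 0.63 to 1.80) and was not lower in this subset. In the subset without a contig Mcl1 stood at 105 and 159.5 CPM (0.656, 0.612 to 0.703), still past 1.5-fold beside 33.8% of all genes, Bcl2l1 at 104 and 37.3 CPM (2.79, 2.44 to 3.21) and Bmf at 14.3 and 5.25 CPM (2.73, 1.90 to 4.06), so that Bmf turned from lower to higher. Mcl1 stood with a heavy chain only at 104 and 107 CPM (0.977, 0.880 to 1.09), beside 43.9% of all genes past 1.5-fold. In that last subset 222 control B220lo cells, with a median depth of 16585 UMIs and a B-lineage marker sum of 6766 CPM, stood against 2821 deleted cells with 6616 UMIs and 15528 CPM. Bcl2l1 there stood at 108 and 21.7 CPM (4.98, 4.01 to 6.27) and Bcl2 at 27.4 and 21.7 CPM (1.26, 1.003 to 1.60), the latter not past 1.5-fold.

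The cell cycle marker sum was 2830 CPM in the deleted and 2396 CPM in control B220lo Cd79a cells, with the opposite order for cells with a heavy chain only (2701 against 3727 CPM). Cells were also split by a UMI of Mki67, a proliferation marker; finding one depends on depth, and median depth was 9181 and 6274 UMIs in cells with it and 4835 and 2748 UMIs in cells without it. Among cells with Mki67, Bbc3 stood at 29.9 CPM in deleted against 3.38 CPM in control B220lo cells (8.85, 7.23 to 10.9), and among cells without it at 42.6 and 6.26 CPM (6.81, 5.76 to 8.10). Mcl1 stood at 101 and 182 CPM with Mki67 (0.556, 0.536 to 0.577) and at 112 and 410.3 CPM without it (0.273, 0.263 to 0.283), so its levels with and without Mki67 lay further apart in the control B220lo than in the deleted cells. Bmf stood at 9.13 and 8.88 CPM with Mki67 and at 21.9 and 28.4 CPM without it. Bcl2l1 was higher in the deleted cells in both, at 96.3 against 49.3 CPM and 123 against 79.0 CPM.

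With each cell thinned to 2000 UMIs, 878 of 12285 deleted Cd79a cells (7.15%, 6.70 to 7.62) and 83 of 9548 control B220lo cells (0.87%, 0.69 to 1.08) had a Bbc3 UMI, against 20.1% and 2.20% without thinning. The control B220lo share was close to that of control Kit+ Elane cells (42 of 4199), the lowest of that library's gates of at least 50 cells. Mcl1 was found in 19.7% of thinned deleted cells and 45.5% of thinned control B220lo cells, and Bcl2l1 in 2457 and 1265 cells of the same totals. Thinning left out 306 deleted and 1291 control B220lo cells.

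**Figure D4:**
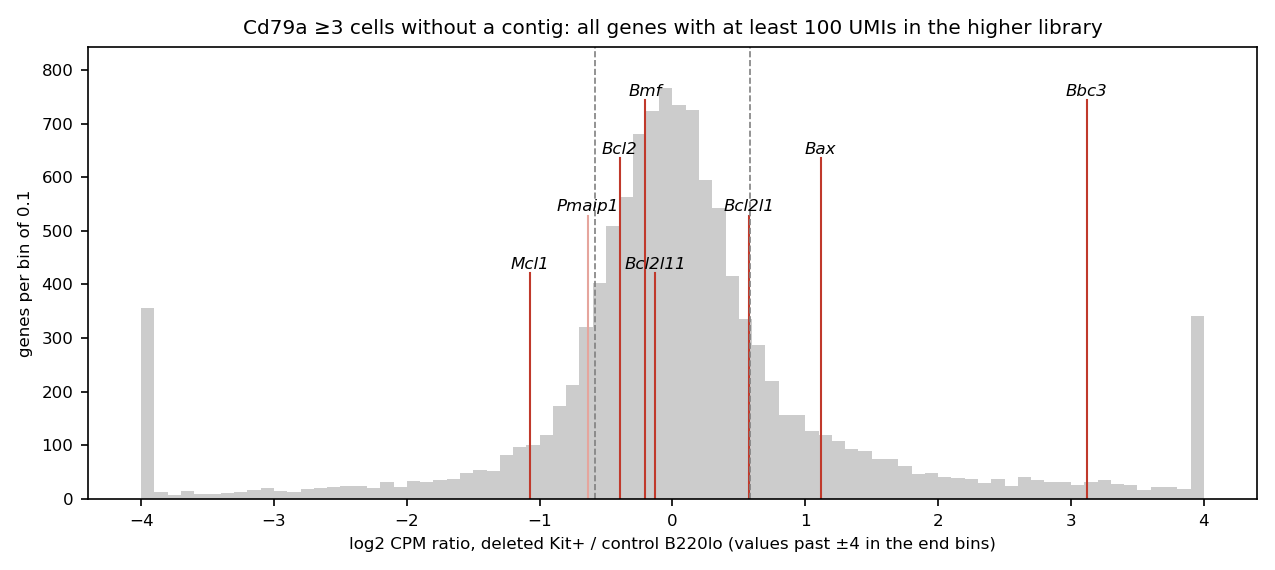
Number of genes (y axis, per bin of 0.1) by log2 ratio of CPM, deleted Kit+ over control B220lo (x axis), in Cd79a cells without a contig, over the 11669 genes with at least 100 UMIs in the library with the higher CPM. Lines mark the members, with a paler line for Pmaip1, which had too few UMIs to be tested and is not among the genes counted. Bbc3 lies far to the right, Bax to the right and Mcl1 to the left, in a distribution in which 40.8% of genes lie past 1.5-fold.

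Several other targets of p53 stood higher in the deleted B-lineage cells. In cells without a contig 15 of 16 genes of the list were tested, and 7 were higher and 3 lower past 1.5-fold, beside 22.4% and 18.4% of all genes, with a median log2 ratio of 0.48 against 0.01 over all genes. Phlda3 stood at 44.7 CPM in deleted against 2.85 CPM in control B220lo cells (15.7, 11.5 to 22.2). Perp, at 5.99 CPM, and Eda2r, a death receptor of the TNF receptor family, at 4.47 CPM, had 1 UMI each in the control B220lo cells, so their ratios of 82.1 (14.7 to 3252) and 61.2 (10.9 to 2424) are loose. Zmat3, at 28.5 and 2.12 CPM, Cdkn1a, at 82.5 and 32.2 CPM, and Ccng1, at 104 and 44.5 CPM, were also higher and are named after their values were seen.

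The list did not move as 1. Trp53inp1 stood at 54.4 and 119 CPM, Plk2 at 6.14 and 11.5 CPM and Mdm4, which restrains p53, at 57.2 and 92.7 CPM, all lower past 1.5-fold. Mdm2, the p53 target that turns p53 over, stood at 48.6 and 59.2 CPM, Trp53 at 266 and 190.1 CPM and Fas at 5.03 and 3.65 CPM, none past 1.5-fold; these genes were also chosen after their values were seen. With a heavy chain only 9 of 15 tested were higher and 4 lower, beside 24.4% and 16.1% of all genes, and in the Vpreb1 subset without a contig 7 of 16 were higher and 1 lower, beside 23.9% and 9.98%. That subset set 680 control B220lo cells against 9324 deleted cells, so there too fewer genes could be counted as lower than as higher. Against the other gates of the deleted library, Phlda3 stood at 12.6 CPM in Car1, 6.89 in Hlf and 3.37 CPM in Elane cells, and Zmat3 at 15.7, 4.59 and 3.01 CPM in the same order.

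**Figure D5:**
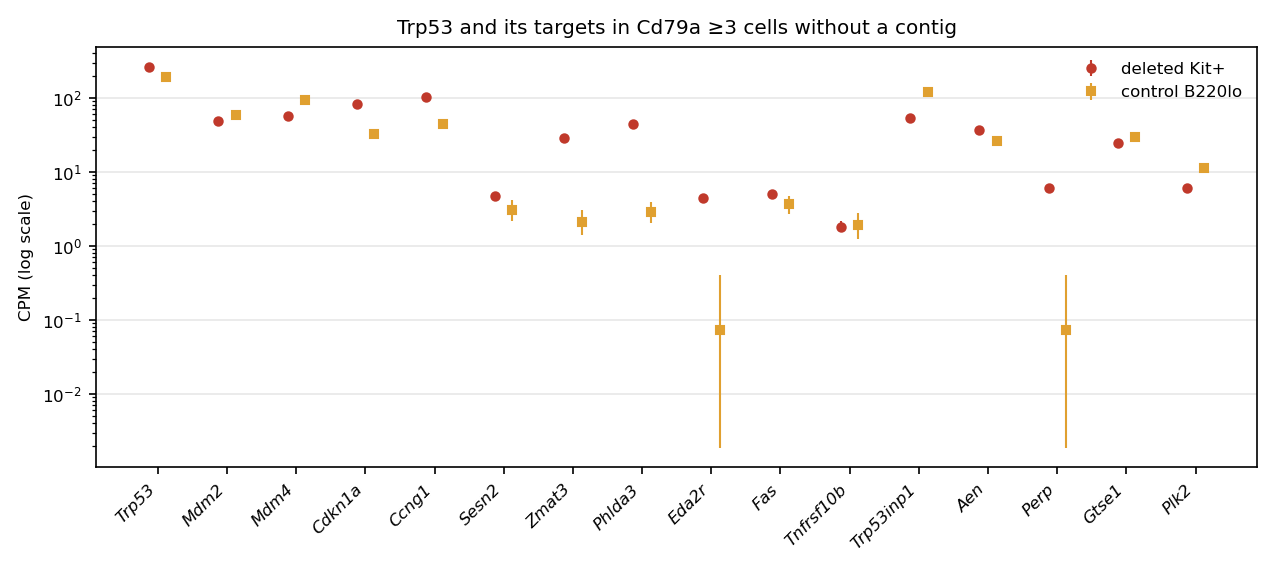
CPM (y axis, log scale) of Trp53 and its listed targets (x axis) in Cd79a cells without a contig of the deleted Kit+ and control B220lo libraries, with exact Poisson 95% intervals. Perp, Eda2r, Phlda3, Zmat3, Cdkn1a, Ccng1 and Sesn2 lie higher in the deleted library past 1.5-fold and Trp53inp1, Plk2 and Mdm4 lower, while Mdm2 stands at 48.6 and 59.2 CPM.

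Of the 15 other Bcl2 family genes (Bok and Bad are named after their values were seen), 8 were tested in cells without a contig. Of these, 4 were higher and none lower, beside 22.4% and 18.4% of all genes. In the Vpreb1 subset of these cells 8 were tested and only Bik, at 12.0 and 2.10 CPM, was higher, none lower, beside 23.9% and 9.98%. The 4 without a contig were Bik, a BH3-only gene, at 11.9 and 1.39 CPM (8.59, 5.47 to 14.3), Bcl2l2, a guardian, at 6.38 and 3.79 CPM, Bcl2l12 at 74.5 and 49.0 CPM and Bok, a Bax relative, at 19.6 and 12.9 CPM. Over all Cd79a cells 12 were tested, with 5 higher and 3 lower, beside 24.6% and 20.5% of all genes. In their Vpreb1 subset 9 were tested, 2 higher and none lower, beside 26.4% and 12% of all genes, so that count is no result about the list. Over all Cd79a cells the higher ones were the same 4 and Bad, a BH3-only gene, at 51.6 and 33.8 CPM. The lower ones there were Bcl2l14, at 0.204 and 2.13 CPM, and the A1 guardians Bcl2a1d, at 0.0511 and 2.08 CPM, and Bcl2a1b, at 0.194 and 4.66 CPM; reads of the near-identical A1 copies may be split between them, so these are uncertain. In the control B220lo library Bcl2a1b stood at 7.47 CPM with both chains and 0.421 CPM with a heavy chain only. Of 15 apoptosome and caspase genes, all tested without a contig, 2 were lower and none higher, beside 18.4% and 22.4% of all genes, so that count is no result about the list. The lower ones were the inhibitor Birc3 (15.8 and 106 CPM) and the initiator Casp9 (4.36 and 10.9 CPM). In the Vpreb1 subset of these cells 1 of 13 tested was lower and none higher, beside 9.98% and 23.9%.

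Of 18 cytokine and FoxO survival genes, 16 were tested without a contig, with 5 higher and 4 lower, shares near the 22.4% and 18.4% of all genes, so the count is no result about the list. In the Vpreb1 subset of these cells 15 were tested, with 5 higher and 2 lower, beside 23.9% and 9.98% of all genes. Over all cells without a contig Kit, the stem cell factor receptor on which the deleted library was sorted, stood at 365 and 18.6 CPM. Foxo1, a driver of several death genes, stood at 980 and 255 CPM (3.84, 3.72 to 3.98) and Myc at 257 and 96.7 CPM. The receptor for the B-cell survival factor BAFF, Tnfrsf13c, stood at 8.52 and 93.3 CPM, Csf2rb at 1.39 and 14.3 CPM and Rel, an NF-kB subunit, at 12.4 and 77.6 CPM. Of 7 genes that control the Mcl1 protein, all tested, Btrc (41.0 and 108 CPM) and Fbxw7 (24.1 and 55.7 CPM), both parts of ubiquitin ligases, were lower and none higher, beside the 18.4% of all genes lower; Mcl1 turnover itself was not measured.

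The genes with patterns most like each member were found over the 19 populations of at least 50 cells, as Pearson's r of log2(CPM + 1) among 8659 genes with a mean of at least 10 CPM. The populations share libraries, Cd79a cells enter by contig state only and a cell can be in more than 1 gate, so r is a description. Mcl1, which spanned 77.9 to 369 CPM, was most like Dusp10 (0.982) and Dbnl (0.974), and Bcl2l1, from 4.84 to 109 CPM, like Plekhg2 (0.968). Bmf was most like Tmf1 (0.977) and Mark3 (0.971), Bcl2 like Padi4 (0.944) and Ino80dos (0.913), and Bcl2l11 like Kif23 (0.930) and Foxm1 (0.929), which are both genes of cell division. Bax was most like Slc12a2 (0.918) and Ppp1r14b (0.914) and Bbc3 like Rtl8b (0.910) and Spred1 (0.905). Pmaip1, never above 3.51 CPM, was least well matched, by Lmo4 (0.861) and Zscan26 (0.857).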

How the data were processed

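Single cells were counted by the authors with Cell Ranger 7.1.0 on mm10, per the submitters' processing notes; the deposited matrices hold raw UMI counts per gene and barcode, and deposited contig tables give assembled immunoglobulin chains. Barcodes were kept from 1000 UMIs and 500 genes upward where mitochondrial genes took no more than 10% of the UMIs, and those with a Scrublet score above 0.25 were left out as likely doublets (scanpy 1.11.5, expected rate 0.08; 580 to 1168 per library). UMIs of the cells of a gate were summed and divided by the gate's total to give CPM, with exact Poisson intervals. CPM ratios carry exact conditional (Clopper-Pearson) intervals, and shares of cells exact binomial ones, at 95%. A library at 0 was set at a floor of 3 counts. Ratios were taken only where both gates held at least 50 cells, over all 32285 genes, and a gene entered the counts with at least 100 UMIs in the library with the higher CPM. No p-value was computed. A gene list's other genes were named by rule: up to 3 each way per list and comparison with the largest ratio past 1.5-fold. Some genes that the rules would name are not reported here. The members and lists were chosen with earlier results of these data known.

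On simulated counts for the Elane gates (32285 genes), 100% of 2-fold changes were past 1.5-fold, 95% (deleted against control) and 93.5% (SI against control) of intervals held the true ratio, and 0.714% and 0.0268% of unchanged genes were past 1.5-fold. These counts were Poisson draws from 1 profile, with no spread between cells or libraries. Changed genes were picked among those expected at 2 times the 100-UMI minimum or more in the smaller library. The outcomes were thus largely set by the design and do not cover members with few UMIs. Alternatives were other doublet, cell and gate filters, other totals, weights and centring. The Vpreb1, Mki67 and basophil subsets and the comparison of the control libraries with each other were chosen after seeing the data. Other versions were numpy 2.4.6, pandas 2.3.3, scipy 1.17.1 and matplotlib 3.10.9. Gene positions came from GENCODE M21, which held 32158 of the 32285 identifiers.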

Additional observations from a re-analysis of the deposited data

How the results depend on the processing

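Of 98 counts of members past 1.5-fold under an alternative, 81 stayed within 1.5 times the reported count, and of 766 single log2 ratios 663 moved little, 99 moved and 4 of members reported past 1.5-fold changed side; the 21 members reported past 1.5-fold remained past it in 166 of 191 alternatives. In Hlf cells of the deleted against the control Kit+ library the count was 0 and became 1 with likely doublets kept, with doubled gate thresholds, with cells of 1 gate only, with each cell given the same weight or with ratios centred on the median gene, and 2 with a depth-scaled gate. In Elane cells of the same pair the count was 1 and became 0 with cells of 1 gate only, where Bcl2l1 changed from a log2 ratio of 0.72 to -0.15, and 0 with each cell given the same weight. In Car1 cells the count was 3 and became 1 with doublets kept, with a depth-scaled gate or with equal weights; Bcl2l11 changed side there, to 0.25 and 0.28 with doublets kept and equal weights. For SI Hlf cells the count was 1 and became 0 with doubled thresholds or with cells of 1 gate only. For Cd79a cells without a contig the count was 3 and became 5 in cells with Vpreb1 and no Ms4a1, and over all Cd79a cells Pmaip1 changed side there, to 0.050. Between the control libraries, the Hlf count was 0 and became 1 with equal weights, and the Elane count was 1 and became 2 with doublets kept and 0 with cells of 1 gate only. The share of all genes past 1.5-fold in SI Car1 cells was 4.29% and 7.46% with a minimum of 30 UMIs. With a pseudocount of 10 CPM, 6 of 16 most-alike genes stayed. Other than where a subset's own cells define it, the cause of a change was not tested.

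Under every alternative that gave a ratio, the log2 ratio of Bcl2 in SI Fcer1a cells lay between -2.64 and -1.99 (reported as -2.44), that of Bbc3 in Cd79a cells between 2.77 and 3.70 (2.88), and that of Mcl1 in Cd79a cells between -1.87 and -0.30 (-1.44). The Fcer1a comparison had 48 control cells with doubled thresholds and 41 among cells with Mcpt8 or Prss34 and was not made there (Bcl2 at 50.3 against 146 CPM in the latter), and with doubled thresholds, a depth-scaled gate or cells of 1 gate only the B220lo Hlf comparison had 14, 34 and 31 cells. No paired analysis was possible because each group is 1 library, and for the same reason no replicate could be left out. Depth limits Pmaip1 and Bmf outside B-lineage cells, and all ratios in the 62 deleted Car1 cells. It also limits Pmaip1 in Cd79a cells without a contig or with a heavy chain only, where Pmaip1 was not tested.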
